A study of Mus musculus with 9 samples.

Results

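The comparison described here sets CD8 T cells of the small intestinal lamina propria, the connective tissue under the gut epithelium, against CD4 T cells of the same tissue. A panel of 770 mouse genes was counted with barcoded probes, in which a biotin-tagged capture probe and a barcoded reporter probe bind each RNA. Every gene above the deposited floor of 4.32 on the log2 scale, which is 20 normalized counts, in at least 1 of the lamina propria samples was taken, which gave 480 genes of the 770. The other 290 genes were listed at the floor in both samples. The lowest members just above the floor, such as Ccl4, stood at 4.34 in the CD4 sample.

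The series holds 9 samples of T cell subsets, each a group of its own with 1 sample: CD4, CD8 and CD4CD8 cells among intraepithelial lymphocytes, and CD4 and CD8 cells from 3 further sites, which are lamina propria, gut-draining mesenteric nodes and peripheral nodes. The labels describe all mice together as wild type or Rag2-/- IRBP-/- R161H animals on the B10.RIII background, a strain that is susceptible to experimental autoimmune uveitis. Immunization was with 10 ug of the retinal peptide IRBP161-180 in complete Freund's adjuvant. Wild-type mice received ampicillin, metronidazole, neomycin, vancomycin and gentamicin by mouth, begun before immunization by 1 week in a short arm and by 4 weeks or more in a long arm. The sample labels give a tissue and a subset only. Genotype, age, antibiotic arm and the number of mice behind a sample are not stated for single samples, so both lamina propria samples are described as the labels name them. With 1 sample a side there is no replicate spread and no test of the difference between them.

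CD4 T cells recognise peptide on MHC class II and act mainly through cytokines and surface ligands, and CD8 T cells recognise peptide on class I and can kill target cells with perforin and granzymes. In the intestinal lamina propria, CD4 cells are known to include Th17 cells, which make IL-17 and IL-22 and act on the epithelial barrier, and regulatory T cells, which carry Foxp3 and restrain responses to food and microbes. Intestinal CD8 cells often carry natural killer (NK) type receptors and the integrin CD103 (Itgae), which binds epithelial E-cadherin.

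Low values in each sample lay on steps of a fixed size, which gave the counts behind them. In the CD4 sample 1 count was worth 0.921 normalized units and the recovered counts summed to 213158, and in the CD8 sample 1 count was worth 2.412 units and the sum was 65222. Across the 9 samples the sums ran from 49052 to 316996. The CD4 sample had 474 genes above the floor and a lowest value of 4.34, and the CD8 sample had 354 and a lowest value of 5.59. These lowest values are used as each sample's detection limit, and a difference against a sample at the floor is given as "at least". Because the CD8 limit was higher, 78 of the 126 genes above the floor in the CD4 sample alone lay below the level at which the CD8 sample could have shown them. The mean of 17 housekeeping genes was 8.80 in the CD4 and 8.71 in the CD8 sample.

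The subset labels were checked first. Cd8a and Cd8b1, the chains of the CD8 co-receptor, were at the floor in the CD4 sample and stood at 9.62 and 8.87 in the CD8 sample, at least 38.9-fold and 23.1-fold higher. Cd4 stood at 9.14 in the CD4 sample and at the floor in the CD8 sample, at least 11.7-fold lower there. The genes of the CD3 complex, which all T cells carry, lay close together: Cd3d was 9.96 in CD4 and 10.50 in CD8, Cd3e 9.63 and 9.90, Cd3g 10.74 and 10.97, and Cd247 8.96 and 8.84. The 3 co-receptor genes thus went with the labels and the shared T cell genes were at like levels. In bulk samples such as these, fewer cells of a type and less RNA per cell cannot be told apart.

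A gene was counted as different when its values, or the bound against the detection limit, were at least 2-fold apart. By that rule 27 genes, 5.62% of the 480, were higher in CD8 and 58, or 12.1%, were lower. Of these 85 genes (17.7%), 54 were above the floor in both samples, 21 higher and 33 lower, and the other 31 rest on bounds, 6 higher and 25 lower. Over the 348 genes above the floor in both samples the median difference, CD8 minus CD4, was -0.18 on the log2 scale, and 216 of them lay within 0.5 of each other. The plot of all 480 genes shows a narrow band of shared expression with a few genes far from it on either side. For every one of the 54 genes the 95% counting interval of the fold excluded 1, and for 34 it lay wholly past 2-fold. The first result is no separate support, since the 54 were picked by a 2-fold gap in the same values. Their values also stood for at least 20 counts in CD8 and 22 in CD4, so exclusion of 1 was nearly given by the rule. The intervals are exact and cover counting error only, not the spread between animals or preparations. At the edge of the 2-fold rule, Cmah and Amica1 were just inside at +1.08 and Ccr7 just outside at +0.85, and on the other side Cd99 was inside at -1.0 and Batf and Egr1 outside at -0.97.

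**Figure D1:**
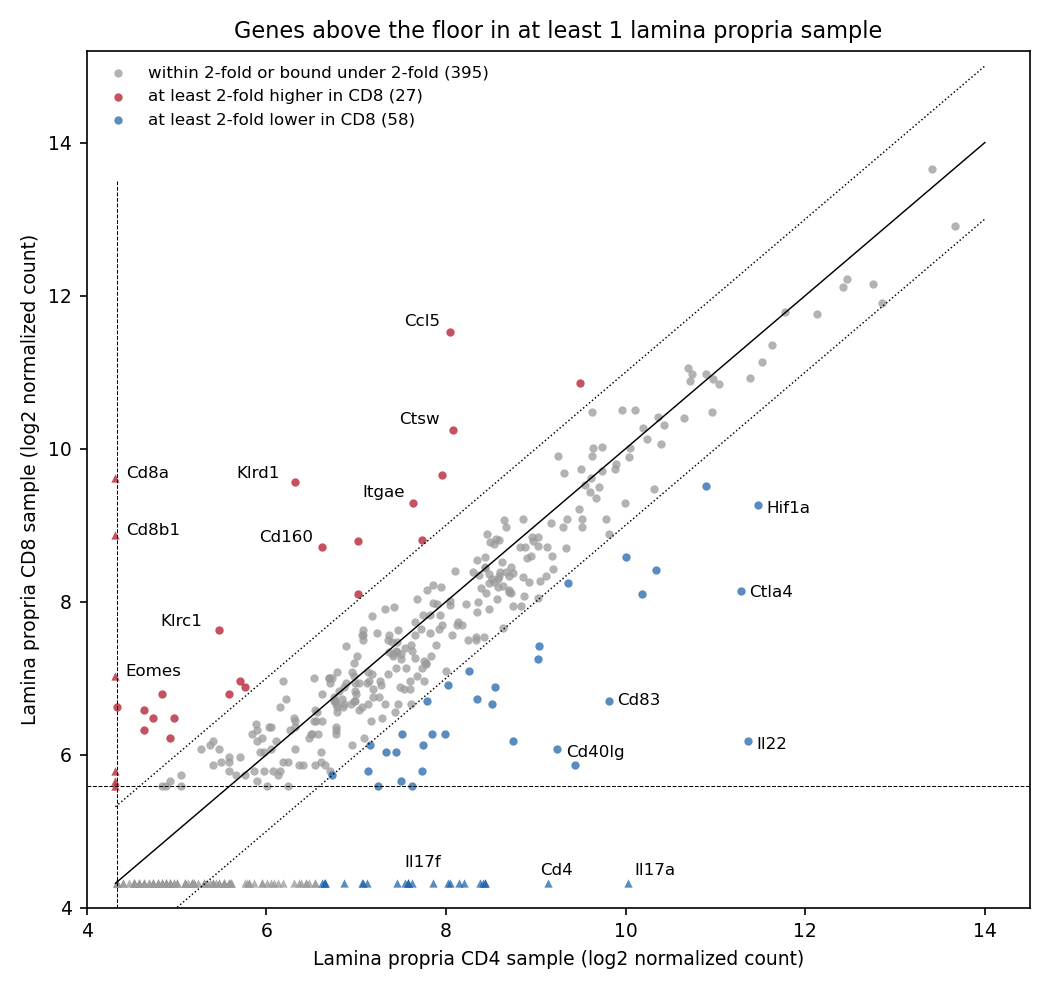
Each of the 480 genes by its log2 normalized count in the lamina propria CD4 sample (horizontal axis) and CD8 sample (vertical axis). Triangles are genes listed at the floor in 1 sample, dashed lines mark the detection limits of 4.34 (CD4) and 5.59 (CD8), dotted lines mark 2-fold, and most genes lie between the dotted lines while Il22, Il17a and Ctla4 lie far on the CD4 side and Ccl5, Klrd1 and Cd8a far on the CD8 side.

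Of the 17 Th17 genes measured, 12 were lower in CD8 and none was higher, against a background of 12.1% lower over all 480. The median difference of the 8 that were above the floor in both samples was -1.35, against -0.18 for all genes. Only 4 of the 12 were measured on both sides, and the other 8 rest on bounds. Start regions of 4 genes of this group, chosen because they hold a known motif, are shown first, since the retinoic acid receptor-related orphan receptor RORα (Rora), a factor of Th17 cells, is known to bind the core AGGTCA. The stretches are RefSeq promoters on build GRCm38.p6, 250 bases before to 50 after the start, each read 5′ to 3′ on the gene's strand, with every AGGTCA or its reverse TGACCT in capitals. Il17a lies at chr1:20730655-20730954 on the plus strand, Il17f at chr1:20784221-20784520 on the minus strand, Ccl20 at chr1:83116516-83116815 on the plus strand and Il23r at chr6:67491806-67492105 on the minus strand.
Il17a: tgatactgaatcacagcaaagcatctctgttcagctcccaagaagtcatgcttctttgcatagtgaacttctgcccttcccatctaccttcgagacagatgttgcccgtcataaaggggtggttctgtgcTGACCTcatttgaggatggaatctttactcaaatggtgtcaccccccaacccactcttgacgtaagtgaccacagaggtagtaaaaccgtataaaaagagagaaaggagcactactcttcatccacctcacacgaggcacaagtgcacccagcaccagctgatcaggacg
Il17f: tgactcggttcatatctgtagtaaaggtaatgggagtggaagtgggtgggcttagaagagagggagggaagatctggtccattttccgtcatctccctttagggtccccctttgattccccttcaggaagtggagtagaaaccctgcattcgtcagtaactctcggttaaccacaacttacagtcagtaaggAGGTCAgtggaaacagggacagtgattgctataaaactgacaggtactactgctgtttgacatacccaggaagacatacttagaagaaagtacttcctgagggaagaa
Ccl20: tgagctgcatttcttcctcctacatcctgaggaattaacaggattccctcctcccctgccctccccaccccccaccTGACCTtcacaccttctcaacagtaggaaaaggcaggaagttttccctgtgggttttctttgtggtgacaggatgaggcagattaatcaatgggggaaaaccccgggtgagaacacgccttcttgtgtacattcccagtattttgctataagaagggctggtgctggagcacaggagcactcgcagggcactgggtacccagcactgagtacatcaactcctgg
Il23r: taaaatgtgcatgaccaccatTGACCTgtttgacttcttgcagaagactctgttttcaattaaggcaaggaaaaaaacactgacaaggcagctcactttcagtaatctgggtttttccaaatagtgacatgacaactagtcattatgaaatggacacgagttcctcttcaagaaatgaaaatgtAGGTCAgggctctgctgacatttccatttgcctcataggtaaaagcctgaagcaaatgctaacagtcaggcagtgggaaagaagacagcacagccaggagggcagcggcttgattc
The match began 120 bases before the start in Il17a, 58 in Il17f and 174 in Ccl20, and Il23r held a pair of matches at 229 and 66 bases before it. Of the 12 Th17 genes that were lower in CD8, 10 had a promoter in the table and 5 of them (50%) held the letters, the fifth being Ccr6, where 1 of 2 listed starts had a match, 44 bases before it. Il22, at chr10:118204714-118205013 on the plus strand, held no match in its window. The letters are common: 16.3% of 32851 promoters of the same length held them, counted by start. By gene, 103 of 566 panel genes with a promoter (18.2%) held them. So did 13 of 41 among the genes lower in CD8 (31.7%) and 2 of 15 among the genes higher in CD8 (13.3%). These shares and the 50% count a gene if any of its listed starts matched, so they are not on the same unit as the 16.3%. A match describes the window only and is not a binding site.

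Il22, the cytokine that acts on epithelial cells, stood at 11.36 in CD4 and 6.18 in CD8, a 36.3-fold gap (95% counting interval 25.4 to 53.9) and the widest of all genes measured on both sides. It was measured on 2853 counts in CD4, and the 30 counts in CD8 were near that sample's limit of 20. Il17a, the signature cytokine of Th17 cells, was 10.03 in CD4 and at the floor in CD8, at least 21.7-fold lower. Il17f, its close relative, was 8.05 and at the floor, at least 5.5-fold lower. Both IL-17 genes were thus plainly measured in the CD4 sample and not detectable in the CD8 sample at its depth.

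Transcription factors of this group were lower too. Rora was 10.18 in CD4 and 8.10 in CD8, a 4.23-fold gap (3.48 to 5.16). Maf, which promotes IL-10 and IL-21 expression in helper cells, was 7.58 in CD4 and at the floor in CD8. Irf4, a factor induced by antigen receptor signals, was 7.99 and 6.27, a 3.29-fold gap (2.28 to 4.91). Rora stayed well above the limit in CD8, whereas Maf was not detectable there.

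Receptors that feed this programme followed the same direction. Il23r, the receptor chain for IL-23, was 8.14 in CD4 and at the floor in CD8, at least 5.86-fold lower. Il1r1, the IL-1 receptor, was 8.20 and at the floor, at least 6.11-fold lower. Ccr6, the receptor for CCL20, was 8.02 in CD4 and its ligand gene Ccl20 was 8.44, and both were at the floor in CD8, at least 5.39-fold and 7.21-fold lower. Il21 was 7.58 and at the floor. Of the 5 Th17 genes that were not past 2-fold, Stat3, the signal carrier of the IL-6 and IL-23 receptors, was 9.70 and 9.50, Batf 8.63 and 7.66, Il6ra 7.29 and 6.48, Csf2 7.43 and 6.56, and Il17rb was 4.88 against a floor that allows no fold.

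Some markers of other cell types that can carry Il22, Il23r or Il1r1 were lower in CD8 too. Of 14 panel genes for mast cells, eosinophils and innate lymphoid cells, 7 were above the floor in the CD4 sample and 2 in the CD8 sample. Over all genes 474 and 354 were above it. The summed levels of the 14 were 2096 and 1007 normalized counts, and they include Il7r, which T cells also express. Kit was 6.64 and Il1rl1 6.87 in CD4, both at the floor in CD8, with bounds past 2-fold. The Kit bound fell short of 2-fold once the samples were centred on their median. Fcer1g was 6.09 in CD4 and at the floor in CD8, a bound under 2-fold. Ncr1 was 5.09 in CD4, under the CD8 limit of 5.59. Cma1, Fcer1a and Klrb1c were at the floor in both. The part of such cells in the Th17 result was not tested.

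**Figure D2:**
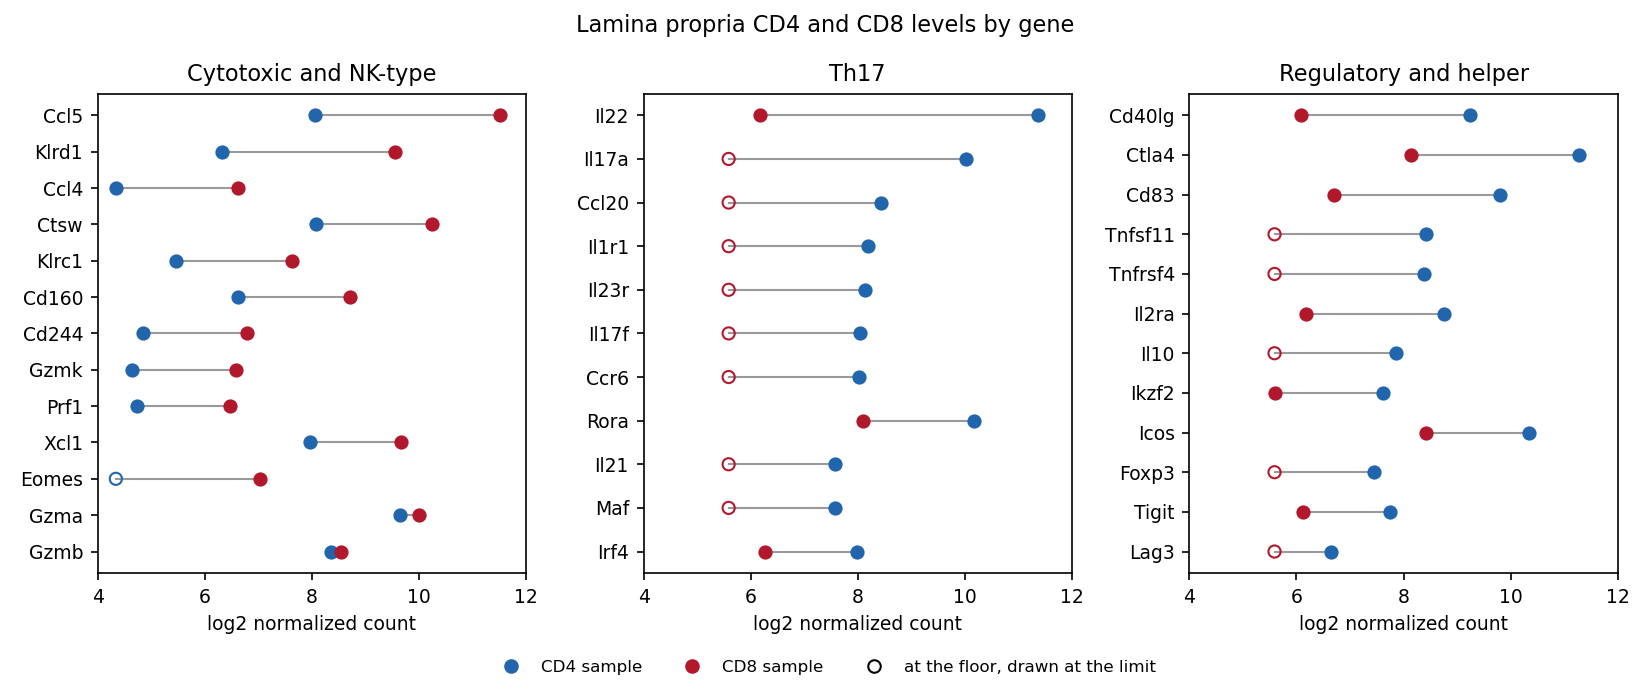
Log2 normalized counts of 36 genes in the lamina propria CD4 sample (blue) and CD8 sample (red), in 3 panels for cytotoxic and NK-type, Th17, and regulatory and helper genes; open circles are samples at the floor, drawn at the detection limit. CD8 points lie to the right in the first panel, though Gzma and Gzmb are nearly level, and to the left in the other panels.

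Regulatory T cell genes were lower in CD8 in similar number. Of 18 measured, 12 were lower (66.7%, against 12.1% of all genes) and none higher. The 10 above the floor in both samples had a median difference of -1.77. With genes measured on both sides alone, 6 were lower. Ctla4, the receptor that competes with CD28 for its ligands, was 11.28 in CD4 and 8.14 in CD8, an 8.82-fold gap (7.32 to 10.7). Foxp3, the factor that defines these cells, was 7.45 in CD4 and at the floor in CD8, at least 3.63-fold lower. Il2ra, the high-affinity IL-2 receptor chain, was 8.75 and 6.18, a 5.94-fold gap (4.11 to 8.91). Ctla4 kept a clear level in CD8, whereas Foxp3 was not detectable there.

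Il10, an anti-inflammatory cytokine, was 7.86 in CD4 and at the floor in CD8, at least 4.82-fold lower. Ikzf2, which encodes Helios, was 7.62 and 5.59, the second value being the CD8 limit itself. Nrp1, a surface receptor of thymus-derived regulatory cells, was 7.58 and at the floor. Tigit, an inhibitory receptor, was 7.75 and 6.13, and Lag3, another, was 6.65 and at the floor, at least 2.08-fold lower. Among members within 2-fold, Nt5e, the ectoenzyme CD73, was 8.58 and 8.30, Tgfb1 was 8.70 and 8.15, Socs3 7.44 and 7.36, and Tnfrsf18, which encodes GITR, 7.09 and 6.22. Genes tied closely to the regulatory lineage and genes that many activated cells share are both on this list.

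Helper ligands and costimulators were lower in 8 of 16 genes (50%, against 12.1% of all genes), and 5 of these 16 are on the regulatory list too. Cd40lg, the ligand by which helper cells license B cells and dendritic cells, was 9.24 in CD4 and 6.08 in CD8, an 8.94-fold gap (6.13 to 13.6). Tnfsf11, which encodes RANKL, was 8.41 and at the floor, at least 7.06-fold lower, and Tnfrsf4, which encodes OX40, was 8.38 and at the floor, at least 6.92-fold lower. Cd83 was 9.81 and 6.70, an 8.63-fold gap (6.37 to 12), and Icos 10.34 and 8.42, a 3.78-fold gap (3.18 to 4.53). Bcl6 and Cxcr5, genes of follicular helper cells, were 6.62 and 6.65 in CD4 and at the floor in CD8, with bounds of 2.04-fold and 2.08-fold that only just pass the rule. Cd200 was 5.71 and 5.97 and thus level. When the 4 lists for Th17, regulatory, Th2 and helper genes were joined, 31 of their 52 members were lower in CD8 and none was higher. Over all genes 12.1% were lower.

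Cytotoxic genes differed by gene. Of the 11 co-receptor and cytotoxic genes measured, 6 were higher in CD8 and none lower, against a background of 5.62% higher. Cd8a and Cd8b1 are the genes of the label check, so their calls say nothing further about cytotoxic genes. The others were Eomes, Ctsw, Prf1 and Gzmk. Of the 6, 3 (Cd8a, Cd8b1 and Eomes) rest on bounds. The 7 above the floor in both samples had a median difference of 0.48. Eomes, a transcription factor of effector and memory CD8 cells, was at the floor in CD4 and 7.03 in CD8, at least 6.45-fold higher. Ctsw, a cathepsin of cytotoxic lymphocytes, was 8.08 and 10.24, a 4.47-fold gap (3.86 to 5.17). Prf1, the pore-forming protein, was 4.74 and 6.48, a 3.34-fold gap on 29 and 37 counts. Gzmk was 4.64 and 6.59, a 3.86-fold gap (2.32 to 6.57) on 27 and 40 counts.

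The more abundant granzymes did not differ by 2-fold. Gzma was 9.64 in CD4 and 10.01 in CD8, and Gzmb 8.35 and 8.54. Runx3, a factor that directs the CD8 lineage, was 7.12 and 6.94, and Tnfsf10, which encodes the death ligand TRAIL, 6.15 and 6.63. Granzyme A and B transcripts were therefore at high and similar levels in both subsets, and perforin and granzyme K transcripts were low in both but higher in CD8.

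NK-type receptors stood out on the CD8 side: 4 of the 8 measured were higher (50%, against 5.62% of all genes) and none was lower. The median of the 6 above the floor in both was 2.03. Klrd1, which encodes CD94, was 6.32 in CD4 and 9.56 in CD8, a 9.45-fold gap (7.41 to 12.1), and its partner Klrc1, which encodes NKG2A, was 5.47 and 7.63, a 4.47-fold gap (3.1 to 6.53). Cd160 was 6.62 and 8.72, a 4.29-fold gap (3.35 to 5.5), and Cd244, which encodes 2B4, was 4.84 and 6.79, a 3.86-fold gap (2.41 to 6.34). Both members of the CD94-NKG2A pair were therefore higher together. Klrk1, which encodes NKG2D, was 6.70 and 7.0, and Cd96 6.99 and 6.94. Klrb1c and 15 further listed genes did not leave the floor in either sample. Ncr1 was 5.09 and Klrg1 5.53 in CD4, both under the CD8 limit and at the floor in CD8.

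Chemokine genes went both ways, 4 of 13 higher (30.8%, against 5.62% of all genes) and 3 lower (23.1%, against 12.1%). Ccl5, which draws T cells and monocytes, was 8.05 in CD4 and 11.52 in CD8, an 11.1-fold gap (9.72 to 12.6) on 288 and 1217 counts. Ccl4 was 4.34 and 6.63, a 4.89-fold gap (2.84 to 8.6) on 22 and 41 counts, and Ccl3 was 5.71 and 6.97, a 2.39-fold gap (1.61 to 3.54). Xcl1, which attracts cross-presenting dendritic cells, was 7.96 and 9.66, a 3.25-fold gap (2.76 to 3.83). All 4 of the higher genes encode chemokines that cytotoxic lymphocytes are known to secrete.

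The 3 chemokines lower in CD8 were Ccl20, given above, Cxcl3 and Cxcl10. Cxcl3, a neutrophil attractant, was 8.44 in CD4 and at the floor in CD8, at least 7.21-fold lower. It was at the floor in the other 7 samples of the series as well, so the lamina propria CD4 sample was alone in having it. Cxcl10, an interferon-induced ligand of CXCR3, was 9.04 and 7.42, a 3.07-fold gap (2.4 to 3.99). Its receptor gene Cxcr3 was 6.89 and 7.42, within 2-fold.

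Chemokine receptors were lower in 5 of 13 genes (38.5%, against 12.1% of all genes) and higher in none. Ccr2 was 7.62 in CD4 and at the floor in CD8, at least 4.08-fold lower, and Ccr4 was 7.54 and at the floor, at least 3.86-fold lower. Ccrl2, an atypical receptor, was 7.50 and 5.66, a 3.58-fold gap (2.27 to 5.89). Ccr6 and Cxcr5 are the others. Receptors for gut and tissue positioning were closer: Cxcr6 was 9.34 and 8.70, Cxcr4 9.78 and 9.08, and Ccr9, the small intestinal homing receptor, 8.62 and 8.52.

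Among adhesion genes, 2 of 14 (14.3%, against 5.62% of all genes) were higher in CD8 and none lower. Itgae was 7.63 in CD4 and 9.29 in CD8, a 3.16-fold gap (2.63 to 3.81). Itga1, a collagen-binding integrin of resident T cells, was 5.76 and 6.89, a 2.19-fold gap (1.46 to 3.23). Itgal, the LFA-1 chain, was 9.99 and 9.29. Cd69, an early activation and residence marker, was 11.63 and 11.36.

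Some genes of naive and recirculating cells were also higher in CD8, 2 of 8 (25%, against 5.62% of all genes). Cmah, which makes the sialic acid Neu5Gc, was 7.73 in CD4 and 8.81 in CD8, a 2.11-fold gap (1.74 to 2.58). Ccr7, the lymph node homing receptor, was 9.63 and 10.48, just short of 2-fold, and passed it when the samples were centred on their median. Tcf7, a factor of naive and memory T cells, was 10.65 and 10.40, Il7r 10.04 and 9.89, and St6gal1 6.71 and 5.79.

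Th1 genes were mostly level. Of 14, 2 (14.3%, near the background of 12.1%) were lower in CD8 and none higher, with a median of -0.16. Tbx21, which encodes T-bet, was 5.05 in CD4 and 5.59 in CD8, the CD8 value being that sample's limit. Ifng was 7.54 and 7.40. The lower ones were Tnf, 7.33 and 6.03, a 2.46-fold gap (1.64 to 3.86), and Il18r1, an IL-18 receptor chain, 9.36 and 8.25, a 2.16-fold gap (1.79 to 2.63).

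Th2-type genes were lower in 6 of 9 (66.7%, against 12.1% of all genes), but Il4, Il5 and Il13 were not among the genes above the floor. The 6 were Gata3, Nfatc2, Il10, Ccr4, Il1rl1 and Maf, and several of them are known in regulatory or Th17 cells as well. Gata3 was 8.26 in CD4 and 7.10 in CD8, a 2.23-fold gap (1.68 to 3.01) that fell short of 2-fold once the samples were centred on their median. Il4ra, the IL-4 receptor chain, was 8.49 and 8.78, and Stat6 8.97 and 8.79.

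Inhibitory receptors were split, 5 of 11 lower in CD8 (45.5%, against 12.1% of all genes) and 2 higher (18.2%, against 5.62%). Ctla4, Tigit and Lag3 are given above. Pdcd1, which encodes PD-1, was 7.06 in CD4 and at the floor in CD8, at least 2.77-fold lower, and Btla was 7.15 and 6.13, a 2.03-fold gap (1.36 to 3.13). The higher ones were Cd160 and Cd244, which are NK-type receptors too. Cd274, which encodes PD-L1, was 8.22 and 7.97.

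Of 18 genes of the antigen receptor complex and its kinases, 2 (11.1%) were lower and 1 (5.56%) higher, shares near the background of all genes. Cd7, a surface protein of T and NK cells, was 7.02 in CD4 and 8.79 in CD8, a 3.41-fold gap (2.73 to 4.29). Nfatc1, a calcium-regulated factor, was 7.44 and 6.03, a 2.66-fold gap (1.77 to 4.14), and Nfatc2 was 7.51 and 6.27, a 2.36-fold gap (1.62 to 3.55). The kinase genes Zap70 and Lck were 9.18 and 8.60, and 10.36 and 10.42. Among common gamma chain receptors and JAK-STAT genes 2 of 12 were lower (16.7%, near the background of 12.1%), Il2ra and Jak2. Jak2, the kinase of many cytokine receptors, was 10.00 and 8.58, a 2.68-fold gap (2.26 to 3.17).

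Of 21 immediate-early and NF-kB genes, 3 (14.3%, near the background of 12.1%) were lower in CD8 past 2-fold, Dusp4, Irf4 and Cd83, and none was higher. Of the 19 above the floor in both samples 16 had the lower value in CD8, against 222 of 348 over all genes, with a median of -0.74 against -0.18. Dusp4, a phosphatase induced by ERK signalling, was 9.03 and 7.25, a 3.43-fold gap (2.65 to 4.53). Jun was 12.85 and 11.90, Rel 9.82 and 8.89, Nfkbia 10.32 and 9.47, and Egr1 9.02 and 8.05. Myc went the other way, 9.25 and 9.90, within 2-fold.

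Interferon response and class I genes hardly differed. Of 28 interferon response genes 1 was past 2-fold, Cxcl10, and the median was -0.01. Of 15 class I processing genes none was past 2-fold, with a median of 0.25. H2-K1, a class I heavy chain, was 11.52 and 11.13. None of the 21 housekeeping genes was past 2-fold, with a median of 0.01.

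Outside the lists, 17 genes were past 2-fold, 6 higher and 11 lower. Hif1a, the oxygen-sensing factor, was 11.47 in CD4 and 9.27 in CD8, a 4.59-fold gap (4.04 to 5.24) on 3079 and 256 counts. Runx1 was 7.73 and 5.79, a 3.84-fold gap (2.48 to 6.15). Gpr183, the oxysterol receptor that positions lymphocytes, was 8.51 and 6.66, a 3.61-fold gap (2.62 to 5.08). Sh2d1a, the adaptor SAP, was 8.55 and 6.89, and Slamf1, a receptor that signals through it, 7.85 and 6.27. Both genes of that receptor-adaptor pair were therefore lower in CD8.

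On the CD8 side, Ada, which encodes adenosine deaminase, was 4.64 and 6.32, a 3.2-fold gap (1.87 to 5.53), and Slamf7 was 5.58 and 6.79, a 2.31-fold gap (1.52 to 3.51). Amica1, a junctional adhesion protein, was 7.02 and 8.10. Tlr6, Tgfb2 and Cd70 were at the floor in CD4 and 5.79, 5.66 and 5.59 in CD8 on 23, 21 and 20 counts, so they sat at or just above the CD8 limit. Among apoptosis genes 2 of 13 were lower (15.4%, near the background of 12.1%). Bcl2l1, which encodes Bcl-xL, was 7.24 and 5.59, the second value being the CD8 limit, and Bcl6 is given above.

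**Figure D3:**
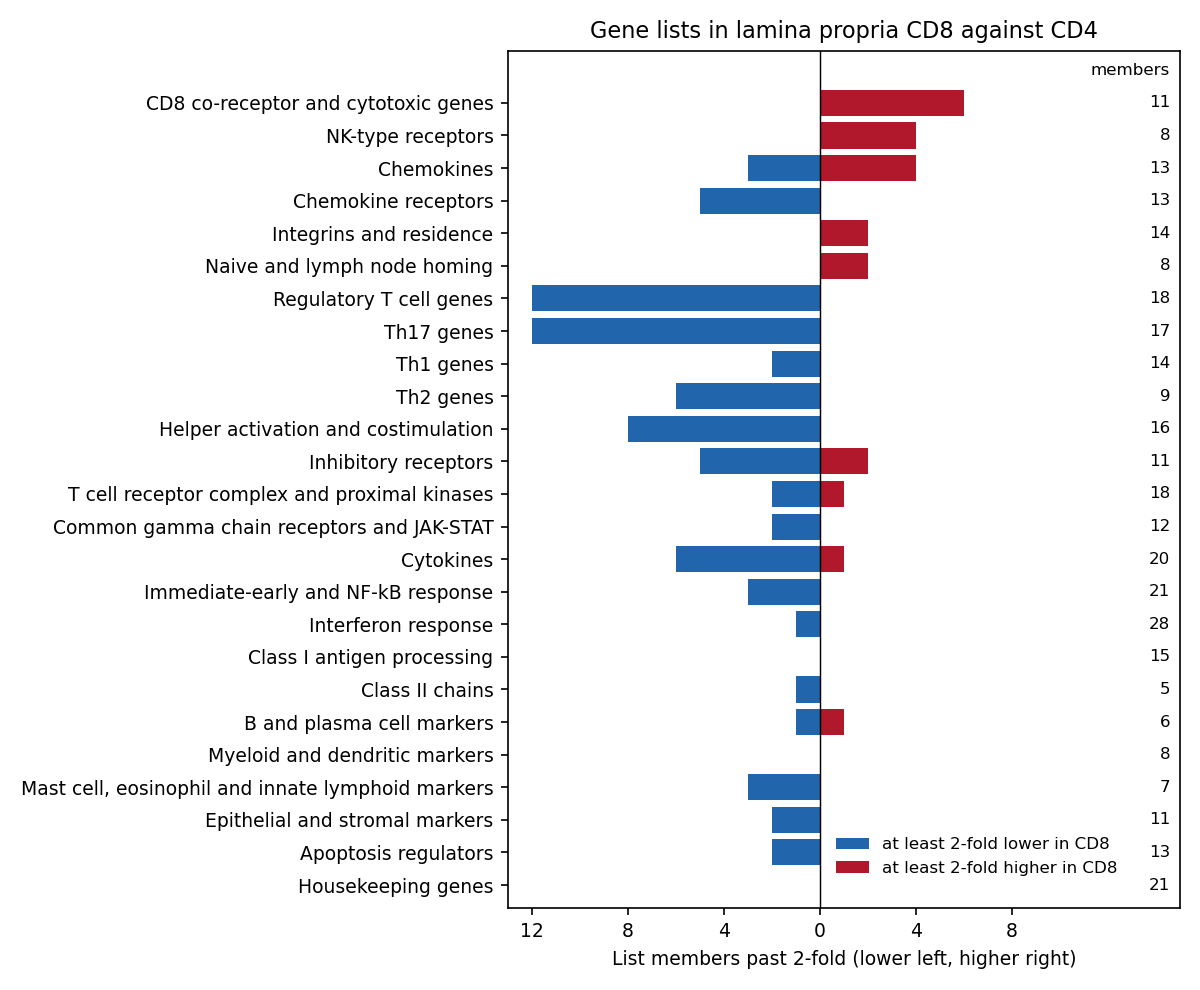
Number of genes of each of 25 lists that were at least 2-fold lower (blue, left) or higher (red, right) in lamina propria CD8 than CD4, bounds included, with the number of members measured at the right edge. Blue bars reach 12 for the regulatory and Th17 lists. Red bars reach 6 for the co-receptor and cytotoxic list, Cd8a and Cd8b1 included, and class I, myeloid and housekeeping lists have no bar.

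RNA typical of cells other than T cells was present in both samples. Dmbt1, a secreted protein of gut epithelium, was 12.42 in CD4 and 12.11 in CD8, and Epcam, the epithelial adhesion molecule, was 9.48 and 9.21. Cdh1 was 8.37 and 8.35, Ceacam1 7.74 and 7.83, and Ccl25 7.28 and 6.91. Cdh1 is no measure of epithelial RNA alone here. It also stood at 8.95 in intraepithelial and at 5.41 and 5.38 in mesenteric and peripheral node CD8 cells. Dmbt1, Ceacam1 and Ccl25 were at the floor in those samples. Of 31 epithelial and stromal genes 11 were above the floor in CD4 and 8 in CD8, with summed levels of 7619 and 5955 normalized counts, and Col1a1, Pdgfrb and Cdh5 were at the floor in both. Cdkn1a and Pecam1 of this list, which T cells also express, were the only ones past 2-fold, 8.35 and 6.73, and 7.79 and 6.70. Dmbt1, Epcam, Ceacam1 and Ccl25 were thus at similar levels on both sides.

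Myeloid markers were fewer. Lyz2 was 9.52 in CD4 and 8.98 in CD8, and Itgam, Csf1r and Itgax were at the floor in both. Cd68 was 5.01 and Cd14 4.41 in CD4 alone, both under the CD8 limit of 5.59. Of 34 genes 8 were above the floor in CD4 and 2 in CD8, against 474 and 354 over all genes. The summed levels were 964 and 556, and none of the 8 was past 2-fold. Class II genes of the list of chains had the lower value in CD8 in 5 of 5, against 222 of 348 over all genes. Only Cd74, the invariant chain, was past 2-fold, at 10.90 and 9.51, a 2.62-fold gap (2.32 to 2.97), and H2-Aa was 9.11 and 8.33. H2-Dma, a class II gene outside that list, went the other way, 6.22 and 6.73, within 2-fold. Of 17 B and plasma cell genes 6 were above the floor in CD4 and 2 in CD8, with sums of 685 and 358. Blk at 4.88 and Blnk at 4.84 in CD4 were likewise under the CD8 limit. Cxcr5, given above, was the only member lower past 2-fold. Cd79b was 4.97 and 6.48, higher in CD8, while Pax5, Cd79a and Ms4a1 did not leave the floor in either sample. The part of such cells in the results for Cxcl3, Cxcl10, Cd83, Cd74 and the activation genes was not tested.

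The same subtraction in the other tissues shows which of these genes also separate CD8 from CD4 cells elsewhere. Of the 27 genes higher in lamina propria CD8, 17 were past 2-fold the same way among intraepithelial lymphocytes, 17 in mesenteric nodes and 16 in peripheral nodes, where the backgrounds were 6.63%, 8.8% and 8.15% of the genes above the floor. Of the 58 lower genes, 44, 27 and 23 were lower there too, with backgrounds of 20.7%, 10% and 9.38%. None of the 58 was past 2-fold in the opposite direction in any of the 3 tissues, and of the 27 only 2 were, Cmah among them, in both cases among intraepithelial lymphocytes. These counts depend on the detection limits of each sample, which ran from 4.34 to 6.30.

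Several genes differed by tissue. Il22 was 11.36 in lamina propria CD4, 9.67 in intraepithelial CD4, 5.15 in mesenteric and 4.45 in peripheral node CD4, and Il17a was 10.03, 9.28 and at the floor in both nodes. Il17f was 8.05 and 6.84 and Il23r 8.14 and 6.30 in the 2 gut CD4 samples, and both were at the floor in the nodes. The intraepithelial CD4 limit was 6.30, so Il23r stood at that limit there and Il17f near it. Il22 and Il17a were therefore high in CD4 cells of both gut compartments and at or near the floor in the nodes. Foxp3, in contrast, was 7.45, 8.02, 7.38 and 7.73 in CD4 cells of the 4 tissues and did not leave the floor in any CD8 sample.

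On the CD8 side, Ccl5 was 11.52 in lamina propria, 14.36 in intraepithelial, 11.39 in mesenteric and 11.49 in peripheral node CD8 cells, against 8.05, 12.41, 6.10 and 5.53 in the CD4 cells. Eomes was 7.03 in lamina propria, 7.22 in mesenteric and 7.45 in peripheral node CD8 cells and at the floor in intraepithelial CD8 cells. Itgae was 9.29, 11.90, 8.50 and 8.26 in CD8 cells of the lamina propria, the epithelium, mesenteric and peripheral nodes. For Eomes and Ccl5 the lamina propria CD8 sample was thus nearer to the node samples than to the intraepithelial one.

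Whether the lamina propria difference departed from the others was tested for the 261 genes above the floor in all 8 CD4 and CD8 samples, with the 3 other tissue pairs supplying the spread. By limma's moderated test with Benjamini-Hochberg adjustment no gene passed (0% of 261), with 15 at an unadjusted p below 0.05 and a smallest adjusted p of 0.758. The fit had 2 residual degrees of freedom. Genes at the floor anywhere, which include Il22, Il17a, Foxp3 and Eomes, could not enter it.

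The genes with the smallest unadjusted p were looked at after their values were seen. Jun differed by -0.95 in lamina propria and by -0.15 on average elsewhere, a difference of -0.80 ± 0.14 (SE; limma adjusted p = 0.758). Nfatc1 differed by -1.41 and by -0.31, -0.22 and -0.22 in the other pairs, a difference of -1.16 ± 0.24 (limma adjusted p = 0.758). Fos was -0.37 in lamina propria and +0.15, +0.58 and +0.49 elsewhere, and Jak2 was -1.42 against -0.82, -0.50 and -0.52. For each of these 4 the lamina propria value lay below all 3 others, but none passed the adjusted test.

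**Figure D4:**
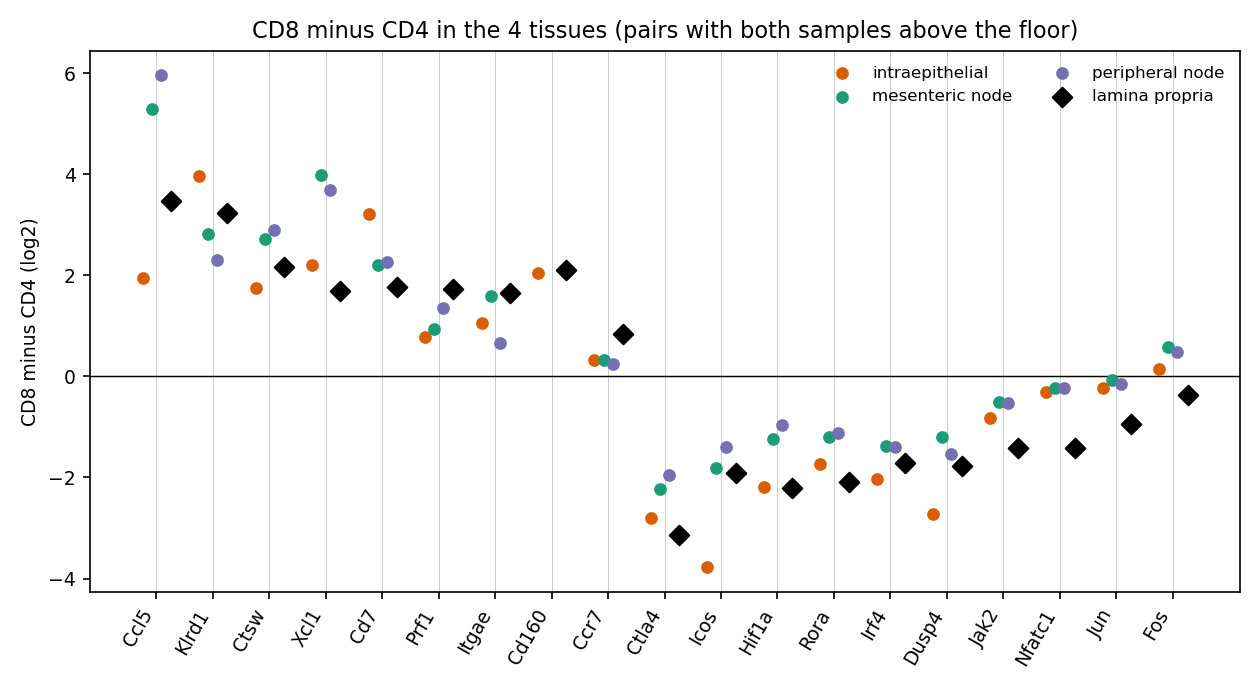
CD8 minus CD4 difference (log2) of 19 genes in the lamina propria (black diamonds), intraepithelial (orange), mesenteric node (green) and peripheral node (purple) pairs, shown where both samples of a pair were above the floor. Points of 1 gene lie on 1 side of 0 in all pairs shown except for Fos.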

How the data were processed

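The values of 770 genes in 9 samples were deposited by the authors as log2 normalized counts that go no lower than 4.32 (20 on the linear scale); how they were scaled and floored is not given in the sources used here, and no steps beyond RNA isolation with an RNeasy kit and probe capture are named, per the labels' protocols. Nothing was rescaled for the main values. The analysis used the log2 difference, CD8 minus CD4, and the lowest value above the floor of each sample as its limit. Linear values up to 75 were whole multiples of a step within 0.005 of a log2 unit in all 143 CD4 and 62 CD8 values checked (31.7% and 17.6% by chance), which gave counts and exact (Clopper-Pearson) 95% intervals of their ratio. In total 474 and 354 genes were above the floor. The tissue comparison used limma 3.58.1 in R 4.3.3 on 8 samples, checked on simulated data, and the rest Python 3.11.15 with scipy 1.17.1. Since the design was fixed for log2 values, no count model was run.

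Symbols were matched to RefSeq for GRCm38.p6, where 754 were current, 8 synonyms and 8 unmatched. Named genes are the co-receptor genes, the 15 largest differences each way among genes above the floor in both samples, the 10 largest bounds each way, and from each of 25 lists every member past 2-fold and up to 4 others with the largest differences. T cell, epithelial and other cell markers were listed apart. Ifng, Cd69, Ccr9, Myc, Lck, Klrg1, Fos and H2-Dma were added after their values were seen. So were Cxcl3 and the epithelial markers in the other tissues. The members, lists and tests were chosen with earlier results of these data known. Lists share genes, and some of their members are counted but not reported here by name.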

Additional observations from a re-analysis of the deposited data

Results flagged for a closer look

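Cmah was 1.08 higher in CD8 on the log2 scale in the lamina propria. Among intraepithelial lymphocytes it was at least 1.25 lower (-1.25 as a bound, with intraepithelial CD8 at the floor). The intraepithelial CD4 value of 6.30 was that sample's lowest value above the floor, and the intraepithelial CD8 limit was 5.05. The turn of direction between the gut compartments thus rests on 1 value at its detection limit. The difference between the compartments was not tested, since 1 of the samples was at the floor. Each compartment has 1 sample a side.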

How the results depend on the processing

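No called gene turned direction when both samples were centred or raised to 1 limit. Centring on the median moved 45 genes near 0 to the other sign, none of them called, among them Cd96, Il7r and Socs3. The 27 genes higher in CD8 became 16 at 3-fold. The 58 lower genes became 33 among genes above the floor in both samples, 97 with floor values taken as deposited, 111 at 1.5-fold and 37 at 3-fold. Among genes above the floor in both samples, co-receptor and cytotoxic genes higher in CD8 fell to 3, because bounds are left out. Regulatory genes lower in CD8 fell to 6, Th17 genes to 4 and helper genes to 3 for the same reason. Of the 85 calls 31.8% were higher in CD8, against 36.8% after centring on the median, a shift of -0.18 that ended the calls of 10 genes, Bcl6, Btla, Cd99, Cxcr5, Gata3, Il18r1, Kit, Lag3, Pecam1 and Tank, and added Ccr7. With floor values as deposited the share was 21.8%. Centring on the mean of the 19 housekeeping genes above the floor in both samples, a shift of -0.04, ended the calls of Bcl6, Btla and Cd99. Raising both samples to the limit of 5.59 left 20 higher genes and ended the calls of Ada, Cd70, Cd79b, Nod1, Prf1, Tgfb2 and Tlr6. An alternative chosen after seeing the data, which asked the counting interval to pass 2-fold too, left 19 higher and 47 lower.

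The test against the other tissues called 0 genes in every alternative but 1: when at least 4 of 8 samples had to be above the floor and values were raised to the highest limit it called 4, Bcl6, Ccrl2, Cd99 and H2-Eb1, whose other pairs were set flat or nearly flat by that limit. Leaving out a tissue pair called 0 each time, but without the intraepithelial pair the smallest adjusted p was 0.0964, with 83 genes at an unadjusted p below 0.05. Over all alternatives the smallest adjusted p ran from 0.000689 to 1. No paired analysis was possible because each group has 1 sample and so no replicate numbers to pair by, though the tissue test itself kept each tissue's CD4 and CD8 samples together. The CD8 sample's 65222 counts against 213158 set its higher limit, so genes low in both are not comparable, and 101 genes seen in CD4 alone gave no call.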
